A study of Mus musculus with 6 samples.

Results

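The genes described here carry symbols of the gene families of the motile cilium: 76 of the 55359 genes in the deposited table. They were chosen by symbol, with earlier results of these data known. The symbols cover the dynein heavy, intermediate and light chains of the axoneme (Dnah, Dnai, Dnal and Dnali1) and the dynein assembly factors (Dnaaf). They also cover the cilia and flagella associated proteins (Cfap), the radial spoke proteins (Rsph), the dynein regulatory complex (Drc), Ccdc39, Ccdc40, Hydin, Spag6l and the tektins (Tekt). RNA was taken from lungs of 6 C57 mouse embryos at stage E18.5, shortly before birth, 3 of genotype WT (wild type) and 3 of genotype Prmt5 knockdown. The series text describes a deletion of Prmt5 in lung mesenchyme through Dermo1, another name of the mesenchymal gene Twist2, while the sample labels say knockdown. The series text and labels give no further allele, Cre line, litter or age detail, and nothing says how far the spread between libraries, against which p-values are measured, is technical. The growth label of all 6 samples, wild type included, describes the pregnant mice as carrying the mesenchymal knockdown.

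A motile cilium is built on an axoneme, a ring of doublet microtubules around a central pair. Outer and inner dynein arms slide neighbouring doublets, radial spokes and the central pair apparatus set the beat, the nexin-dynein regulatory complex links the doublets, and tektins and other inner proteins line the tubules. In the lung many of these genes are known from multiciliated cells of the airway epithelium, where Foxj1 and the RFX factors drive their transcription. The selection is by symbol, and which cells the reads of each gene came from was not tested. Multiciliated cells are a small part of the whole organ and are epithelial, whereas the series text places the deletion in mesenchyme. In RNA of whole lung, fewer cells of a type and less RNA per cell cannot be told apart.

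Total counts ranged from 14383415 to 19262837 per library. Prmt5 itself stood at 46.6, 47.1 and 48.1 CPM (reads scaled to a common library total with TMM factors) in wild type and at 39.4, 47.6 and 46.7 in the other group, which gave a log2 fold change of -0.08 (edgeR, interval at 95% confidence -0.29 to 0.13, adjusted p = 0.682). Twist2, the locus named as the driver, stood at 2.59, 2.04 and 3.07 against 1.05, 0.917 and 1.48 CPM, lower in all 3 libraries of the second group (log2 fold change -1.14, edgeR unadjusted p = 0.00603, adjusted p = 0.163). Since Prmt5 itself did not differ by this test, the second group is called knockdown-labelled throughout. Heart muscle genes were uneven between the libraries: the summed CPM of 16 such genes was 588, 693 and 3514 for wild type against 4796, 13960 and 4229. Heart muscle level thus differed between the groups without overlap. Fits below that use it as a covariate separate it from the group poorly.

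The regulatory sequences of the family are shown first. A larger share of its promoters than of all promoters carried the letters of an arm of the X-box, the site of the RFX factors. Most of its promoters did not carry them. Of the 76 genes 59 were matched by symbol to a RefSeq promoter of 300 bases (250 before and 50 after the transcription start, build GRCm38.p6). These letters, GTTGCCA, are called the X-box core here and are not a full X-box. Searched on both strands, they stood in 13 of the 59 (22.0%) against 5.03% of all 27024 genes with a promoter. A forkhead core, TGTTTAC on both strands, stood in 4 of the 59 (6.78%) against 4.05%. A paired X-box with both arms was found in 4 of 59 (6.78%) against 0.777%, and a form with a longer spacer in 2 (3.39%) against 0.529%. The paired forms can overlap the core. Windows of 87 bases before the transcription start are printed for the 5 genes with a core there and the smallest p in the comparison below, 5′ to 3′ on the strand of the gene, with the core or its reverse complement TGGCAAC in capitals.
Tekt1: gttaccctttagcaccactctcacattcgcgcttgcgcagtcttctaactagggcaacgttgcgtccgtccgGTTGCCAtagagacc
Drc1: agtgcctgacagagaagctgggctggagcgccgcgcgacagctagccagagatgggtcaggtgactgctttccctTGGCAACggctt
Cfap20: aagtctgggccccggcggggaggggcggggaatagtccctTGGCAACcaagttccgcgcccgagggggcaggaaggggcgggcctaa
Cfap161: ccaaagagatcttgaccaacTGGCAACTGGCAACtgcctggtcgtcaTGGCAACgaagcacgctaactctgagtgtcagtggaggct
Hydin: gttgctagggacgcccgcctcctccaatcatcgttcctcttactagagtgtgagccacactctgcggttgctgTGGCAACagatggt

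The windows lie at chr11:72361883-72361969 (minus strand) for Tekt1, chr5:30281306-30281392 (plus) for Drc1, chr8:95434918-95435004 (minus) for Cfap20, chr7:83794840-83794926 (minus) for Cfap161 and chr8:110266890-110266976 (plus) for Hydin. The core nearest the start began 15 bases before it in Tekt1, 12 in Drc1, 95 in Cfap20, 40 in Cfap161 and 14 in Hydin. Cfap161 held 3 copies in this window. A match of letters is a description of the sequence and does not show that a factor binds there. Of the 18 genes below with higher values at an unadjusted p under 0.05, 14 had a promoter sequence and 4 of these held the core.

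The axoneme genes were nearly all transcribed, at low levels. Of the 76, 74 had reads in every library and enough reads to be tested. The exceptions were Dnaaf6, an assembly factor gene with 1 read in a single knockdown-labelled library, and Rsph6a, a radial spoke gene with 2, 1 and 0 reads in wild type and none in the others. Levels are compared between genes as FPKM, the deposited unit that scales fragments by exon length and library total. Rsph1 of the radial spoke head had the highest mean over the 6 libraries, 19.7 FPKM. Cfap20, a tubule lining protein also found in other microtubule structures, followed at 17.9 and Cfap126, also called Flattop, at 15.1. Summed over all 76 genes, FPKM came to 328, 316 and 318 in the wild type libraries and 382, 361 and 365 in the knockdown-labelled ones, so the groups did not overlap in this sum.

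**Figure D1:**
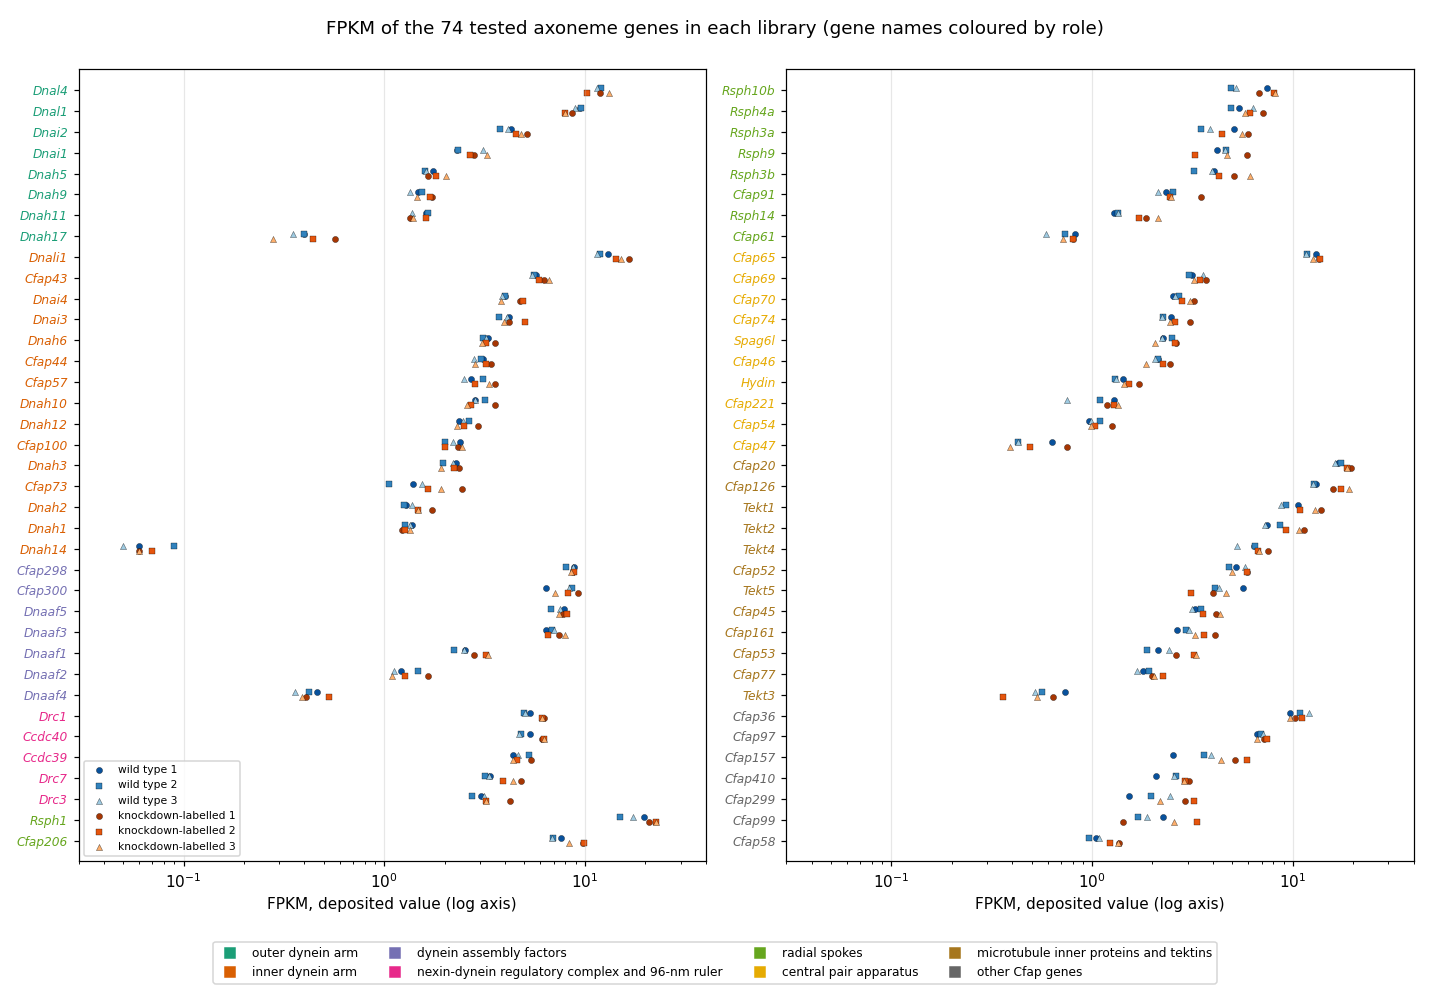
FPKM (log axis) of the 74 tested axoneme genes, 1 point per library, with blue for wild type and orange for knockdown-labelled libraries and gene names coloured by role. Most genes lie between 1 and 20 FPKM, Rsph1 is highest at a mean of 19.7 and Dnah14 lowest at 0.065.

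The comparison of the groups asks how cilia transcripts compare between lungs with and without a mesenchymal Prmt5 deletion, as the series text describes it. No axoneme gene passed the test: 0 of 74 had a Benjamini-Hochberg adjusted p under 0.05 in edgeR's quasi-likelihood test, where 0.0338% of all 17728 genes tested did (0.00564% higher and 0.0282% lower). Before adjustment, at a p under 0.05, 18 of the 74 were higher in the knockdown-labelled libraries (24.3%, against 8.48% of all genes) and 1 was lower (against 8.52%). The signs leaned one way: 65 of 74 log2 fold changes were positive (87.8%, against 52.9% of all genes), and their median was 0.16 against 0.01 over all genes. In 27 genes all 3 knockdown-labelled libraries lay above all 3 wild type ones (36.5%, against 10.8% of all genes), and in 1 they lay below (12.4% of all genes). DESeq2 called 1 axoneme gene higher, Cfap126, where it called 2.05% of all genes higher and 2.50% lower. Genes can share their cells, so the 74 are not independent measurements of the groups. The count of 18 was lower with any 1 library left out: it was 11, 10 and 10 without wild type replicate 1, 2 or 3 and 13, 12 and 15 without knockdown-labelled replicate 1, 2 or 3. Such fits have fewer libraries and less power, and the share of all genes in them was not computed. The median log2 fold change ranged from 0.14 to 0.22 in these fits.

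**Figure D2:**
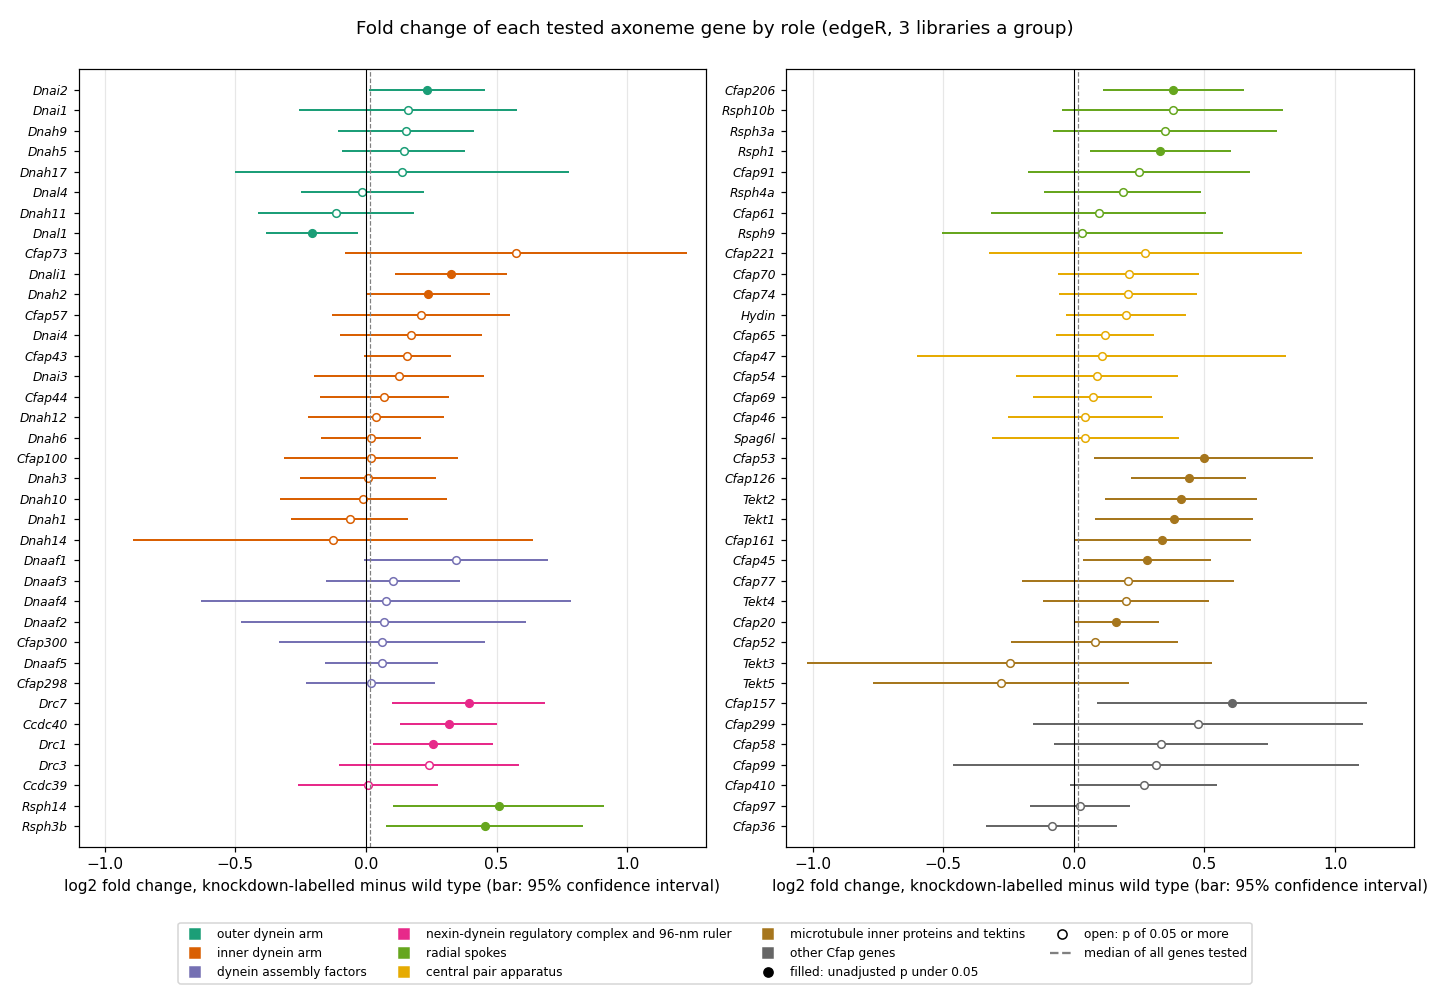
Log2 fold change (knockdown-labelled minus wild type) of each tested axoneme gene with its 95% confidence interval, grouped and coloured by role, filled where the unadjusted p is under 0.05; the dashed line is the median of all genes tested, 0.01. Of 74 genes 65 lie right of 0, and the radial spoke genes continue from the left panel to the right one.

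Among the outer dynein arm genes, which encode the motors that give the beat its force, 5 of 8 were positive (62.5%, against 52.9% of all genes). Their median log2 fold change was 0.14. The heavy chain genes Dnah5 and Dnah9, whose products are the outer arm motors of airway cilia, had mean levels of 1.74 and 1.54 FPKM over the 6 libraries and log2 fold changes of 0.14 ± 0.10 and 0.15 ± 0.11 (SE, n = 3 each). Dnah11, the heavy chain of the proximal cilium, had a lower mean FPKM than either and a log2 fold change of -0.11 ± 0.12. Dnah17, the heavy chain known from sperm, had 0.407 FPKM and 0.14 ± 0.27. All 4 intervals included 0. Dnai2, an intermediate chain that holds the arm together, had wild type values of 19.6, 17.5 and 18.8 CPM and knockdown-labelled values of 23.2, 21.0 and 21.5 CPM. Its groups did not overlap, with a log2 fold change of 0.23 ± 0.09 (SE) and an edgeR adjusted p of 0.272. Its partner Dnai1 had 6.47, 6.54 and 8.62 against 7.75, 7.54 and 8.88 CPM, overlapping groups and a log2 fold change of 0.16 ± 0.18.

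Of the 9 axoneme genes with a negative log2 fold change, the light chain gene Dnal1 was the 1 with an unadjusted edgeR p under 0.05. The tektin genes Tekt5 and Tekt3, chosen after their values were seen, had more negative values with wider errors, -0.28 ± 0.21 and -0.25 ± 0.33 (SE). Dnal1 had wild type values of 66.2, 67.5 and 61.7 CPM and knockdown-labelled values of 59.3, 56.2 and 54.0 CPM. All knockdown-labelled values lay below all wild type values, with a log2 fold change of -0.21 (interval -0.38 to -0.03, unadjusted p = 0.0260, edgeR adjusted p = 0.237). With heart muscle level as a covariate its log2 fold change was -0.13, and in the table's coordinates it overlaps Pnma1 on the opposite strand, a gene with fewer reads and a log2 fold change of -0.57. With wild type replicate 1, wild type replicate 2, knockdown-labelled replicate 2 or knockdown-labelled replicate 3 left out, 0 axoneme genes were lower at an unadjusted p under 0.05 in edgeR. Dnal4, another light chain gene, stood at 28.6, 29.3 and 27.3 against 28.3, 24.96 and 31.0 CPM, a log2 fold change of -0.01 whose interval ran from -0.24 to 0.22.

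Inner dynein arm genes, which shape the bend of the cilium, had 12 of 15 positive (80%, against 52.9% of all genes) and a median of 0.07. Dnali1, an inner arm light chain gene, was the most abundant per length at 13.8 FPKM over the 6 libraries. It had wild type values of 28.1, 25.8 and 24.4 CPM and knockdown-labelled values of 35.2, 31.1 and 31.7 CPM. Its groups did not overlap, and the log2 fold change was 0.32 (0.11 to 0.54, unadjusted p = 0.00841, edgeR adjusted p = 0.174). Cfap43, which helps tether an inner arm dynein, had 40.4, 39.9 and 38.1 against 44.0, 42.1 and 45.95 CPM, also without overlap (log2 fold change 0.16, edgeR adjusted p = 0.304). In the table's coordinates Cfap43 overlaps Gsto1 on the opposite strand, a gene with more reads (mean 1712 counts against 672) and a log2 fold change of 0.55, and its part in the value of Cfap43 was not tested. Dnali1 likewise overlaps Gnl2, at 1001 counts against 473 and a log2 fold change of 0.08. Cfap44, the partner of Cfap43, had overlapping groups and 0.07 ± 0.10 (SE). The intermediate chain genes Dnai3 and Dnai4 had 0.13 ± 0.14 and 0.17 ± 0.11.

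The 7 inner arm heavy chain genes of the selection differed little between the groups in most cases. Dnah7a, Dnah7b and Dnah7c fall outside the selected symbols and are counted below with the other motile cilia genes. Their log2 fold changes were 0.78 ± 0.39, 0.24 ± 0.15 and -0.09 ± 0.22 (SE). The groups of Dnah7a and Dnah7b did not overlap, and those of Dnah7c did. Those of Dnah7a came close, with uneven wild type values of 4.31, 7.599 and 2.299 CPM against 8.613, 7.685 and 8.015. Within the selection Dnah6 had the highest level per length of the inner arm heavy chain genes, 3.25 FPKM over the 6 libraries. It had wild type values of 43.8, 41.9 and 42.5 CPM and knockdown-labelled values of 46.8, 43.2 and 39.9 CPM. The groups of Dnah6 overlapped around a log2 fold change of 0.02 (-0.17 to 0.21). Dnah10 followed at 2.95 FPKM, Dnah12 at 2.53, Dnah3 at 2.16, Dnah2 at 1.44, Dnah1 at 1.303 and Dnah14 at 0.065 FPKM. Their log2 fold changes were -0.01 ± 0.13 for Dnah10, 0.04 ± 0.11 for Dnah12, 0.01 ± 0.11 for Dnah3, -0.06 ± 0.09 for Dnah1 and -0.13 ± 0.32 for Dnah14 (SE). Dnah2, which belongs to a two-headed inner arm, was at 19.4, 19.1 and 20.6 against 25.6, 22.5 and 21.6 CPM. Its groups did not overlap (log2 fold change 0.24 ± 0.10, edgeR adjusted p = 0.282).

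Dynein assembly factors fold the motors in the cytoplasm before transport into the cilium. All 7 tested had positive log2 fold changes (52.9% of all genes did), with a median of 0.07. In edgeR 0 had an unadjusted p under 0.05, where 8.48% of all genes were higher and 8.52% lower. The most abundant were Cfap298 at 8.61, Cfap300 at 8.00, Dnaaf5 at 7.58 and Dnaaf3 at 7.04 FPKM over the 6 libraries. Cfap298 had wild type values of 14.1, 12.95 and 13.7 CPM and knockdown-labelled values of 13.8, 14.2 and 13.4 CPM, a log2 fold change of 0.02 (-0.22 to 0.26). The values of Cfap300, Dnaaf5 and Dnaaf3 also overlapped between the groups, at 0.06 ± 0.17, 0.06 ± 0.09 and 0.10 ± 0.11 (SE). In the table's coordinates Dnaaf3 overlaps the heart troponin gene Tnni3 on the same strand, whose log2 fold change was 2.19.

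The nexin-dynein regulatory complex and the molecular ruler, which set the spacing of arms and spokes along the doublet, had 5 of 5 positive (52.9% of all genes were). Their median was 0.26. Ccdc40, a ruler protein, had wild type values of 32.2, 29.3 and 28.2 CPM and knockdown-labelled values of 36.7, 38.2 and 37.0 CPM. Every knockdown-labelled value was above every wild type one, with a log2 fold change of 0.32 (0.14 to 0.50, unadjusted p = 0.00445, edgeR adjusted p = 0.148). Its binding partner Ccdc39 stood at 32.8, 39.5 and 34.1 against 39.99, 34.8 and 32.2 CPM. These overlapped, and the log2 fold change was 0.01 (-0.26 to 0.27). The difference between the partners was not tested. In the table's coordinates Ccdc39 overlaps Ttc14, a gene with more reads on the opposite strand. Drc1, the scaffold of the regulatory complex, had 14.4, 13.6 and 13.4 against 16.7, 16.7 and 16.1 CPM (log2 fold change 0.26 ± 0.10, edgeR adjusted p = 0.256). Drc7 of the same complex had 10.1, 9.64 and 9.90 against 14.2, 11.8 and 12.9 CPM (0.39 ± 0.12, edgeR adjusted p = 0.205). Neither gene's groups overlapped.

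Radial spoke genes, whose products pass signals from the central pair to the arms, had the highest median of the role groups, 0.34. Of 10 tested, 10 were positive (52.9% of all genes were). At an unadjusted edgeR p under 0.05, 4 were higher (40%, against 8.48% of all genes). Rsph1 had wild type values of 27.2, 20.8 and 23.6 CPM and knockdown-labelled values of 28.2, 31.5 and 30.4 CPM. The groups came close but did not overlap (log2 fold change 0.33, 0.06 to 0.60, edgeR adjusted p = 0.226). Cfap206, needed for a spoke of the triplet, had 19.03, 17.4 and 16.9 against 24.2, 24.96 and 20.3 CPM (0.38 ± 0.11, edgeR adjusted p = 0.191). Rsph14 had 3.88, 4.08 and 4.02 against 5.54, 5.22 and 6.28 CPM, a log2 fold change of 0.51 ± 0.17 (edgeR adjusted p = 0.219). Both were higher in all 3 knockdown-labelled libraries than in any wild type one.

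Rsph3a and Rsph3b are near copies on chromosome 17, and reads may be split between them. Rsph3b stood at 12.7, 10.2 and 12.2 against 15.7, 13.6 and 18.7 CPM (log2 fold change 0.45 ± 0.16, edgeR adjusted p = 0.230). Rsph3a had 15.5, 10.7 and 11.6 against 18.0, 13.6 and 16.5 CPM (0.35 ± 0.18), with overlapping groups. The spoke head genes Rsph4a, Rsph10b and Rsph9 overlapped between the groups, with log2 fold changes of 0.19 ± 0.13, 0.38 ± 0.18 and 0.03 ± 0.23. Rsph9 had knockdown-labelled values on both sides of the wild type ones, at 9.41, 5.29 and 7.40 CPM against 6.77, 7.53 and 7.34 in wild type.

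Central pair genes, which encode the projections that the spokes touch, had 10 of 10 positive (52.9% of all genes were) and a median of 0.11. In edgeR 0 were at an unadjusted p under 0.05, where 8.48% of all genes were higher and 8.52% lower. Cfap65 was the most abundant per length at 12.7 FPKM and stood at 102.5, 93.3 and 90.1 CPM in wild type against 105.1, 108 and 97.5 CPM. Its groups overlapped (log2 fold change 0.12, -0.06 to 0.30). Cfap70 had 11.0, 11.8 and 11.0 against 13.7, 12.3 and 12.97 CPM without overlap (0.21 ± 0.11, edgeR adjusted p = 0.397). Cfap69, Cfap74, Spag6l and Cfap46 overlapped between the groups, with log2 fold changes of 0.07 ± 0.09, 0.21 ± 0.11, 0.04 ± 0.15 and 0.04 ± 0.12.

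Microtubule inner proteins and tektins, which brace the doublets from within, held 7 of the 18 genes with higher values (58.3% of this group, against 8.48% of all genes). Of 12 tested, 10 were positive (52.9% of all genes were), 9 had knockdown-labelled values all above wild type (10.8% of all genes did), and the median was 0.24. Cfap126 had the smallest p of all axoneme genes. It had wild type values of 23.3, 22.9 and 22.2 CPM and knockdown-labelled values of 27.8, 31.4 and 33.4 CPM, a log2 fold change of 0.44 (0.22 to 0.65, unadjusted p = 0.00191, edgeR adjusted p = 0.128, DESeq2 adjusted p = 0.0378). The wild type values lay within about 1 CPM of each other, below every knockdown-labelled value. Tekt2 had 14.2, 16.7 and 13.8 against 21.4, 17.9 and 20.1 CPM (log2 fold change 0.41 ± 0.12, edgeR adjusted p = 0.191). Tekt1 had 17.4, 15.2 and 14.1 against 22.2, 18.0 and 20.7 CPM (0.38 ± 0.13, edgeR adjusted p = 0.217). For both tektins each wild type library lay under all knockdown-labelled ones.

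Cfap20 had wild type values of 75.4, 78.7 and 71.5 CPM and knockdown-labelled values of 86.5, 83.9 and 82.0 CPM, a log2 fold change of 0.16 ± 0.07 (edgeR adjusted p = 0.286). Tekt4 had 12.9, 13.2 and 10.4 against 14.8, 13.7 and 13.4 CPM (0.20 ± 0.13, edgeR adjusted p = 0.495). The groups of both did not overlap, whereas Cfap52 overlapped at 0.08 ± 0.13. The other genes of this group at an unadjusted p under 0.05 were Cfap45 (0.28 ± 0.10), Cfap53 (0.50 ± 0.18) and Cfap161 (0.34 ± 0.14), and among the Cfap genes in no role group Cfap157 (0.61 ± 0.22). These 4, Hydin, Rsph6a and the heavy chain genes other than Dnah6 were chosen after their values were seen. In the edgeR comparison Cfap157 had the largest log2 fold change of the 74, but with heart muscle level as a covariate it was 0.18, below the 0.47 of Cfap126; that of Cfap53 was then 0.29. The CPM of Cfap157 were 4.56, 6.54 and 6.90 against 9.11, 10.7 and 7.66.

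**Figure D3:**
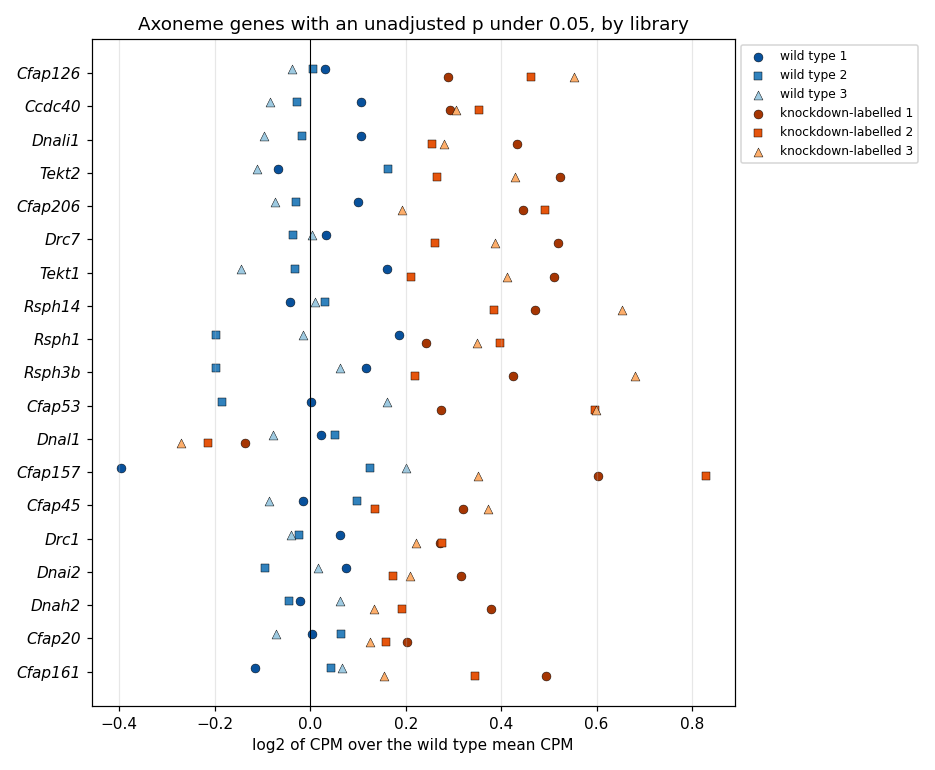
Log2 of each library's CPM over the wild type mean CPM for the 19 axoneme genes with an unadjusted p under 0.05, ordered by p, with blue for wild type and orange for knockdown-labelled libraries. In 18 genes the knockdown-labelled points lie to the right of all wild type points, and in Dnal1 they lie to the left.

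Values were also described by gene length, and no difference between length classes was tested. Over the 11 heavy chain genes of the selection the median log2 fold change was 0.02 with 7 positive (63.6%, against 52.9% of all genes). Over the other 63 tested it was 0.20 with 58 positive (92.1%). Neither count includes Dnah7a, Dnah7b or Dnah7c. By exonic length, the 14 axoneme genes up to 2000 bases had a median of 0.27, the 24 from there to 4000 bases 0.29, the 18 up to 8000 bases 0.17 and the 18 longer ones 0.08. All tested genes had medians of 0.08, 0.04, -0.0018 and -0.06 in the same classes. The axoneme median was above that of all genes in each class. At an unadjusted p under 0.05, 13 of 38 axoneme genes up to 4000 bases and 5 of 36 longer ones were higher. Over all genes tested the share was 9.16%, 8.55%, 8.66% and 7.03% from the shortest to the longest class. The first count was 10, 7 and 9 without wild type replicates 1, 2 and 3 in turn, and 11, 8 and 9 without knockdown-labelled replicates 1, 2 and 3. The second was 1, 3 and 1 without wild type replicates 1, 2 and 3 in turn, and 2, 4 and 6 without knockdown-labelled replicates 1, 2 and 3. With heart muscle level as a covariate the counts were 5 and 3. Across genes, Spearman's rho between exonic length and log2 fold change was -0.37 for the 74 axoneme genes and -0.14 for all 17728 tested, with all points taken from the same 6 libraries. This comparison was chosen after the values were seen.

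The libraries of the knockdown-labelled group differed in the long genes. For the 18 axoneme genes over 8000 bases, the median log2 ratio to the wild type mean was 0.21, 0.09 and -0.10 in knockdown-labelled replicates 1, 2 and 3. Over all tested genes of that length it was -0.06, -0.05 and -0.11. For the 24 axoneme genes from 2000 to 4000 bases it was 0.23, 0.26 and 0.25. For the 14 genes up to 2000 bases it was 0.29, 0.24 and 0.13. For the 18 genes from 4000 to 8000 bases it was 0.22, 0.12 and 0.09. Knockdown-labelled replicate 3 was thus the lowest of its group in each class except that from 2000 to 4000 bases, where it was level with the others. Over the 38 axoneme genes up to 4000 bases the median log2 fold change was 0.29, and over the 36 longer ones 0.11; the latter was 0.06 when knockdown-labelled replicate 1 was left out and 0.17 when this was done with wild type replicate 1. The part of transcript length in these results was not tested.

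**Figure D4:**
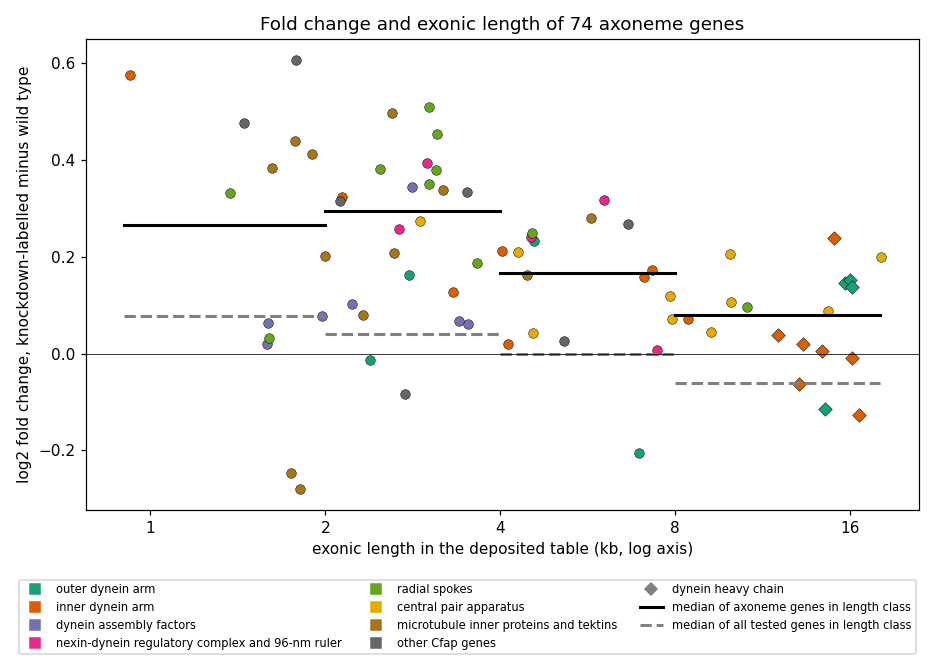
Log2 fold change of 74 axoneme genes against exonic length (kb, log axis), coloured by role with dynein heavy chains as diamonds; black bars are medians of axoneme genes and dashed grey bars medians of all tested genes in 4 length classes. The black bars fall from 0.27 and 0.29 in short genes to 0.08 above 8 kb and lie above the grey ones in each class.

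Genes around the axoneme were compared next. Of 36 other motile cilia genes, 32 were positive (88.9%, against 52.9% of all genes) with a median of 0.27. At an unadjusted edgeR p below 0.05, 6 were higher (16.7%, against 8.48% of all genes) and 1 was lower (against 8.52%). After adjustment 0 passed. The most abundant were Tppp3, a tubulin-binding protein gene, at 116, 118 and 122 against 155, 126 and 162 CPM, and Dynlrb2, a dynein light chain gene, at 26.8, 24.6 and 23.3 against 34.3, 31.6 and 28.95 CPM. Neither overlapped between the groups (log2 fold changes of 0.32 and 0.34, edgeR adjusted p = 0.212 and 0.177). Lrrc23, the next most abundant, had 82.9, 72.8 and 66.5 against 88.2, 82.8 and 77.8 CPM. Its groups overlapped (0.16, edgeR adjusted p = 0.456). The list of multiciliated cell regulators had 11 of 16 positive (68.8%) and a median of 0.09. In it Foxj1 stood at 65.6, 80.0 and 62.9 against 89.3, 93.8 and 88.7 CPM (0.38, edgeR adjusted p = 0.172, DESeq2 adjusted p = 0.0426). The next most abundant regulators, E2f4 and Tfdp1, overlapped between the groups with log2 fold changes of 0.03 and 0.06. Of the RFX factor genes, Rfx3 had 43.9, 43.9 and 40.9 against 39.7, 35.8 and 35.1 CPM, lower without overlap (-0.22, edgeR adjusted p = 0.237). Rfx2 had 17.6, 18.6 and 18.3 against 21.4, 21.2 and 21.8 CPM, higher without overlap (0.24, edgeR adjusted p = 0.227). Both RFX genes were chosen after their values were seen. Genes of intraflagellar transport and the Bardet-Biedl complex, which primary cilia of most cells also use, had 24 of 41 positive (58.5%) and a median of 0.04. At an unadjusted edgeR p under 0.05, 1 was higher (2.44%, against 8.48% of all genes). Their most abundant gene Ift20 had 38.9, 38.8 and 35.9 against 40.6, 37.2 and 40.02 CPM.

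Markers of other cells moved in part with the axoneme genes. Of 14 tested club and secretory cell genes, the other main lineage of this epithelium, 11 were positive (78.6%, against 52.9% of all genes) with a median of 0.17. By unadjusted edgeR p below 0.05, 4 were higher (28.6%, against 8.48% of all genes) and 1 was lower (against 8.52%). Their summed CPM was 3804 to 4062 in wild type and 4061 to 4266 in the knockdown-labelled group. Scgb1a1, the defining club cell gene, stood at 577, 565 and 566 against 405, 818 and 509.5 CPM, and Scgb3a2 at 805, 692 and 651 against 826, 852 and 909 CPM. Cbr2 had 536, 572 and 542 against 998, 691 and 660 CPM (0.51, edgeR adjusted p = 0.208, DESeq2 adjusted p = 0.0248). Fmo2, chosen after its values were seen, was lower at 786, 899 and 824 against 584, 647 and 569 CPM (-0.48, edgeR adjusted p = 0.116, DESeq2 adjusted p = 5.39e-05). Neither gene's groups overlapped. Genes of epithelium in general summed to 2146 to 2421 against 2084 to 2544 CPM, with 10 of 16 positive (62.5%, against 52.9% of all genes). Basal and goblet cell genes summed to 182 to 486 against 317 to 1011 CPM (11 of 12 positive, 91.7%). Airway cartilage genes summed to 111 to 136 against 95.3 to 185 CPM (6 of 8 positive, 75%). No member of these lists was at 0 in all libraries, while 3 of 12 sperm genes were and 1 of the 12 had enough reads to test. Heart muscle genes were positive in 16 of 16. The part of these cell types in the axoneme results was not tested. With heart muscle level as a covariate the axoneme median was 0.22, and 8 genes were higher at an unadjusted p under 0.05. That level (mean log2 CPM) was 3.3, 3.8 and 6.5 in wild type against 6.9, 8.8 and 6.7. This fit therefore separates it from the group poorly. In it Ccdc40 had a log2 fold change of 0.39 (edgeR adjusted p = 0.684), against 0.32 (0.148) without the covariate. The share of all genes at a p under 0.05 in this fit was not computed.

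**Figure D5:**
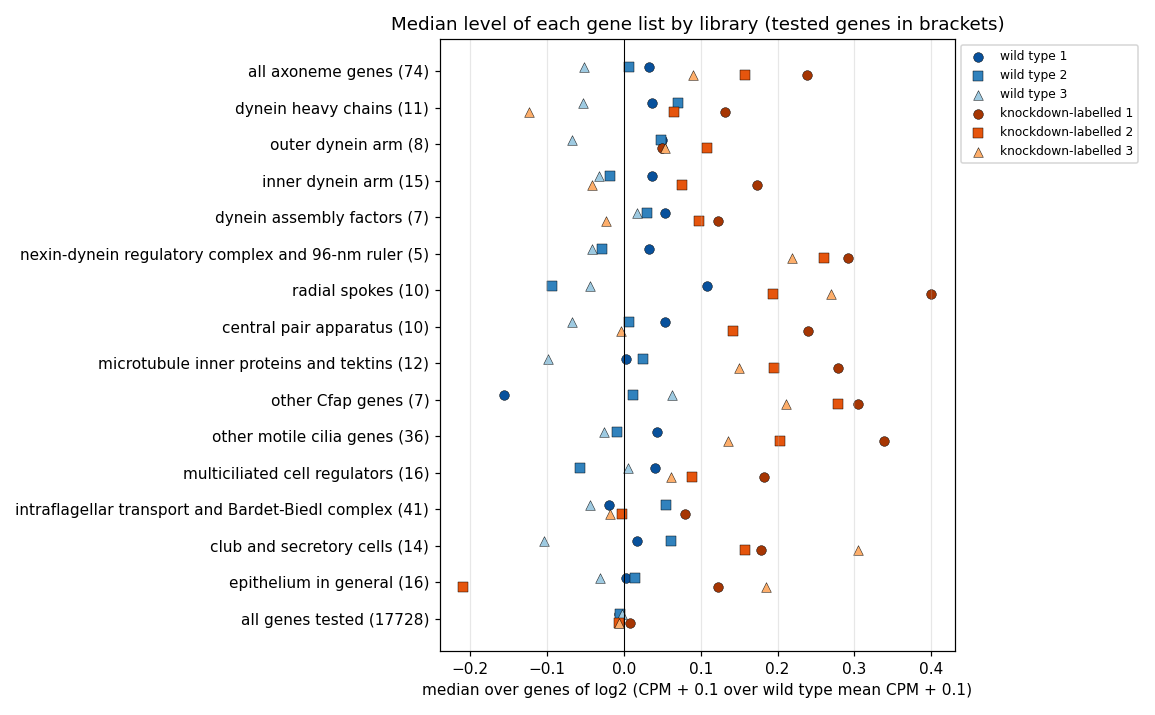
Median over the tested genes of each list of the log2 ratio of CPM to the wild type mean CPM, 1 point per library (0.1 added to both). For all axoneme genes the knockdown-labelled libraries lie at 0.24, 0.16 and 0.09, to the right of the wild type ones at 0.03, 0.006 and -0.05. The 11 dynein heavy chains of the selection overlap between the groups.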

How the data were processed

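Poly(A) RNA of whole lungs was sequenced as paired ends, per the labels' protocols. HTSeq 0.6.1, HISAT2 2.0.1 and cutadapt 1.9.1 are listed in the submitters' processing notes, with no role or order. Genome build and strand setting: not given in the sources used here. Whole-number counts for each gene come as deposited, beside FPKM, which the authors made per the file headers from counts and exonic length; recomputed values agreed within 0.005.

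The members, gene lists and tests were chosen with earlier results of these data known. Counts of all genes were fitted with edgeR 4.0.16 in R 4.3.3 (quasi-likelihood test, filterByExpr, TMM, group as the only term), two-sided, with Benjamini-Hochberg adjustment over 17728 genes and a threshold of 0.05. The fit was tested on simulated data with larger differences than the axoneme genes had, so its power at their size was not tested. CPM use TMM factors, and SE is the absolute log2 fold change over the square root of F. Groups were called not overlapping on CPM. An exact permutation test of 3 against 3 cannot go below 0.1 and was not used. No pair of libraries in a group matched within counting noise, and each was kept as a replicate. Of the 76 genes 21 overlap another gene with a mean above 50 counts in the table's coordinates, 17 on the opposite strand. Overlap was judged on whole gene spans, not exons. With the strand setting not given, whether reads were shared was not tested. Named are the most abundant genes of each role, the 10 smallest p-values and the extremes of level. Alternatives were median-of-ratios (RLE) factors, no filter, DESeq2 1.42.0, limma 3.58.1 on log2 FPKM, embryo sex (female above 1000 Xist counts) or heart muscle level as covariates, other totals, a threshold of 0.10 and leaving out each library. A library's 3 counts correspond to 0.156 to 0.209 CPM.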

Additional observations from a re-analysis of the deposited data

How the results depend on the processing

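In edgeR no axoneme gene was called with RLE factors, without a filter, with either covariate, with totals without the 20 most abundant genes, at an adjusted p under 0.10 or without any 1 library, nor in limma with a pseudocount of 1 or 0.1; DESeq2 called 1, Cfap126. The count higher at an unadjusted p under 0.05 was 18, but 11 in DESeq2 and 8 with heart muscle level as a covariate, and 10 to 15 with a library left out. It was 12 with sex as a covariate, 14 without a filter, 18 with RLE factors, 19 in limma with either pseudocount and 21 with the other totals. The share of all genes at that p was not computed in these alternative fits, so the counts cannot be set against it. The count lower was 1, but 2 with sex as a covariate, and 0 to 1 with a library left out. The cause was not tested. The median log2 fold change stayed positive, from 0.14 to 0.22 with a library left out, and the median of all genes moved by less than 0.1 in each fit. Some signs changed, also in genes with values near the axoneme median such as Dnai1 (0.16), Dnah17 (0.14) and Dnai3 (0.13). With heart muscle level as a covariate the log2 fold change was -0.0161 for Cfap298, -0.0944 for Cfap300, -0.11 for Cfap52, -0.07 for Cfap69, -0.0058 for Dnaaf5, -0.032 for Dnai1, -0.0517 for Dnai3, -0.0613 for Dnah3, 0.10 for Dnah10, 0.0215 for Dnah14 and 0.15 for Dnal4, and without a change of sign 0.03 for Rsph4a and 0.10 for Dnai4. With the other totals it was 0.0055 for Dnah10 and 0.0038 for Dnal4, and with sex as a covariate -0.0831 for Rsph9. With a library left out it ranged from -0.0736 to 0.0905 for Ccdc39, -0.0156 to 0.0458 for Cfap298, -0.0592 to 0.16 for Cfap300, -0.0319 to 0.16 for Cfap46, -0.15 to 0.085 for Dnah10, -0.0508 to 0.12 for Dnah12, -0.26 to 0.17 for Dnah14, -0.10 to 0.38 for Dnah17, -0.0494 to 0.10 for Dnah3, -0.0291 to 0.0764 for Dnah6, -0.0909 to 0.0631 for Dnal4, -0.17 to 0.22 for Rsph9 and -0.0183 to 0.16 for Spag6l. No paired analysis was possible because the numbers in the sample titles differ between the groups.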
